A study of Mus musculus with 6 samples.

Results

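The genes described here are 10 genes of pluripotent cells and of the germline, namely the developmental pluripotency associated genes *Dppa2*, *Dppa3*, *Dppa4*, *Dppa5a* and *Dppa1*, and *L1td1*, *Tex19.1*, *Trim28*, *Lin28a* and *Fbxo15*. They were found by symbol through their Ensembl identifiers and make up 10 of the 55774 genes of the expression table, and all 10 were found. Their level was measured by RNA sequencing of polyadenylated RNA in wild type (WT) mouse blastocysts. Embryos of ICR mice were taken at the 2-cell stage and cultured for 75 hours in CZB medium with extracellular vesicles from human Fallopian tubes. In the oEV-EMT group the vesicles came from women with endometriosis. In the oEV-ctrl group they came from women with uterine fibroids by the sample labels, whereas the methods of the study name cervical intraepithelial neoplasia. The ICR females were 6 to 8 weeks old and were mated with males of up to 10 weeks. Each group had 3 libraries and each library held 10 pooled blastocysts, so that differences between single embryos are not seen. The vesicles of both groups are human while the embryos are of the mouse, and no library without vesicles was analysed here. No source used here states that the libraries of a group came from separate cultures, so p-values measure the spread between these libraries, which may be technical.

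*Dppa2* and *Dppa4* are a pair of DNA-binding proteins with a SAP domain that keep chromatin of developmental genes open and help to switch on genes of the 2-cell stage. *Dppa3*, also called Stella, is laid down in the oocyte and shields the early genome from DNA methylation by keeping *Uhrf1* away from it. *Dppa5a*, also called Esg1, is a small RNA-binding protein with a KH domain. *Trim28* is a corepressor that zinc finger proteins bring to retroelements and imprinted loci, where it recruits the methyltransferase *Setdb1*. *Tex19.1* is a germline gene kept silent in the body by DNA methylation and it holds retroelements in check. *L1td1* is an RNA-binding protein derived from the retrotransposon LINE-1. *Lin28a* blocks the maturation of the microRNA let-7, and *Fbxo15* is an F-box protein, the part of an SCF ubiquitin ligase that binds the substrate. Most of these genes are characteristic of the inner cell mass and of pluripotent stem cells, whereas *Trim28* is expressed widely.

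Several of these genes have processed pseudogenes, which are copies of their mRNA elsewhere in the genome, and the coding stretches that follow show how close the copies are. Each is a stretch of 100 bases of coding sequence, 5' to 3', from the transcripts of GENCODE M21 on GRCm38, and capitals mark the bases at which gene and copy differ. The stretches of *Dppa2* (chr16:48313883-48313982, plus strand) and *Dppa4* (chr16:48292911-48293010, plus strand) are shown once, since the copies *Gm9788* and *Gm14058* have 0 mismatches there. For *Dppa3* (chr6:122628666-122628765, plus strand) and *Dppa5a* (chr9:78367804-78367903, minus strand) the gene is followed by its copy, with 1 and 2 mismatches.
Dppa2: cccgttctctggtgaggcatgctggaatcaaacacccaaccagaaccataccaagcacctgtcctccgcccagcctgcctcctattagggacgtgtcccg
Dppa4: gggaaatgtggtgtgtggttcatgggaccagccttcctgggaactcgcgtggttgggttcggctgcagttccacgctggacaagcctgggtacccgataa
Dppa3: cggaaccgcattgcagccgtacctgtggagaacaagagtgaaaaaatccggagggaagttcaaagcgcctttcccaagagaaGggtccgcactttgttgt
Dppa3-ps: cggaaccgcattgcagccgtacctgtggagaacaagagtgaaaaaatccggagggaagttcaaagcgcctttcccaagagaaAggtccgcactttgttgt
Dppa5a: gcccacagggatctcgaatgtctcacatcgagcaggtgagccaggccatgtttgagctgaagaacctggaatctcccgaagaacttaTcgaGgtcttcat
Gm6798: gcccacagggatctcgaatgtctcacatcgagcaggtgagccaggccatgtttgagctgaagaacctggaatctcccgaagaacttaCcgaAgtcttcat
Reads from such stretches could be given to the gene or to its copy, and each copy is set beside its gene in the results.

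The table gives 1 value per gene and library, taken here as FPKM, a unit that divides fragments by transcript length and by library size, so that levels of different genes can be set side by side. The relative depth, read from the steps between low values, ranged from 1.21 to 2.07 in oEV-EMT and from 1 to 1.82 in oEV-ctrl, with 1 the shallowest library, and oEV-EMT 1 was the deepest. A single unannotated entry held 15.3% to 19% of the summed FPKM in oEV-EMT and 19.7% to 31.5% in oEV-ctrl, and mitochondrial genes held 3.93% to 4.84% against 5.96% to 7.45%. The median log2 fold change of the 11924 genes tested, those that reached 1 FPKM in 3 or more libraries, was 0.17 as deposited, 0.01 after median-of-ratios scaling and -0.05 after upper quartile scaling. The direction of a small change thus depends on the scaling.

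All 10 genes passed the filter on low values, 9 of them with at least 1 FPKM in every library. With limma and Benjamini-Hochberg adjustment, 0 of the 10 had an adjusted p of at most 0.05, and of all genes tested 0 of 11924 did (0%). At an unadjusted p of at most 0.05, *Dppa2*, *Dppa4* and *Lin28a* were higher in oEV-EMT, where 12.8% of all genes tested were. *Lin28a* would not have been tested without its higher values in oEV-EMT. *Dppa5a* and *Dppa1* were lower, where 2.55% of all genes were. After median-of-ratios scaling, 2 of the 10 were higher and 2 lower, and of all genes 758 and 768, against 1527 and 304 as deposited. After upper quartile scaling the 10 genes gave 2 and 2 again, and all genes 536 and 972. The median log2 fold change of the 10 genes was 0.19, beside 0.17 for all genes tested. The 10 genes were thus divided in direction, and 5 of the 10 lay above the median of all genes.

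**Figure D1:**
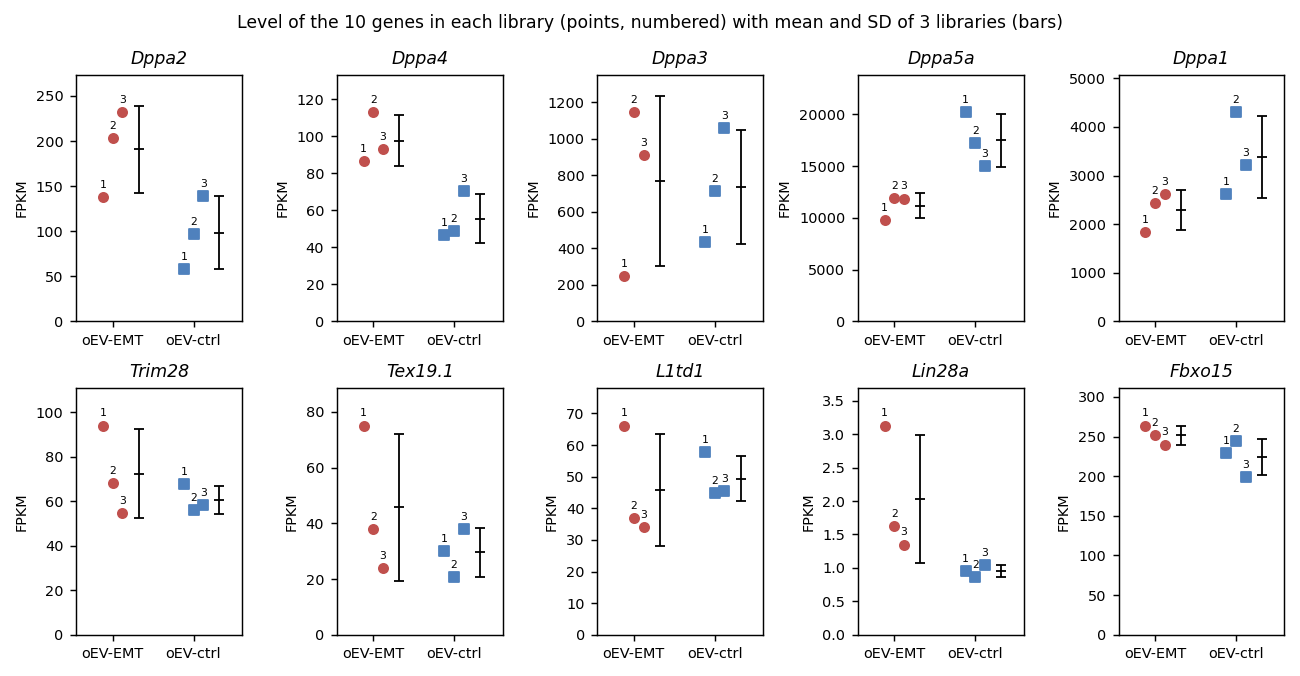
FPKM (linear axes from 0) of each of the 10 genes in the 3 oEV-EMT libraries (circles) and the 3 oEV-ctrl libraries (squares), numbered by library, with the mean and SD of each group as bars. *Dppa4* and *Lin28a* are higher in oEV-EMT without overlap, as were 18.1% of all genes tested. *Dppa5a* and *Dppa1* are lower without overlap, as were 4.34%. *Lin28a* would not have been tested without its higher oEV-EMT values. Library oEV-EMT 1 stands far from the other oEV-EMT libraries for *Dppa3*, *Tex19.1*, *L1td1* and *Lin28a*.

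The levels of the 10 genes spanned nearly 4 orders of magnitude. *Dppa5a* was by far the most abundant, with a mean over 6 libraries of 14320 FPKM, and ranked 2 among the 21897 protein-coding genes by mean level, between rank 1 and rank 3 in every library. It alone held 0.755% to 1.3% of the summed FPKM of a library. *Dppa1* followed with 2839 FPKM, at rank 30. *Dppa3* had 752 FPKM, *Fbxo15* 238, *Dppa2* 145, *Dppa4* 76.5, *Trim28* 66.5, *L1td1* 47.6 and *Tex19.1* 37.7 FPKM on average. *Lin28a* came last with 1.49 FPKM, at rank 8846. By the range over the 6 libraries, *Dppa5a* lay apart from *Dppa1*, *Dppa1* from *Dppa3* and *Tex19.1* from *Lin28a*, while the other neighbours in this order overlapped. *Dppa2* was nevertheless higher than *Dppa4* in 6 of 6 libraries, and *Fbxo15* higher than *Dppa2* in 6 of 6. In their abundance *Dppa5a* and *Dppa1* were thus set off from the rest, and *Lin28a* was near the limit of what was tested.

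Among the regulators of transcription, *Dppa2* and *Dppa4* had the higher level in oEV-EMT. The 2 genes are neighbours on chromosome 16 of GRCm38, with *Dppa4* from 48283733 to 48294237 and *Dppa2* from 48303908 to 48319723, both on the plus strand and 9670 bases apart. The FPKM of *Dppa4* was 86.5, 113 and 93.2 in oEV-EMT and 46.7, 49.0 and 70.6 in oEV-ctrl. Every oEV-EMT library was above every oEV-ctrl library, as in 18.1% of all genes tested. The means were 97.5 ± 13.7 (SD, n = 3) and 55.4 ± 13.2 (SD, n = 3), a ratio of 1.76. On the log2 scale the groups differed by 0.82 ± 0.22 (SE, limma, adjusted p = 0.164, unadjusted p = 0.00427), at the 95.4th percentile of all genes. In bulk RNA, a larger number of cells that express a gene and more RNA per cell cannot be told apart.

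For *Dppa2* the FPKM was 138, 203 and 232 in oEV-EMT and 58.3, 97.4 and 139 in oEV-ctrl. The groups touched, since oEV-EMT 1 and oEV-ctrl 3 had nearly the same value, and the spread within each group was wider than for *Dppa4*. The means were 191 ± 47.8 and 98.4 ± 40.6 (SD, n = 3 each), a ratio of 1.94. Its log2 fold change was 1.01 ± 0.32 (SE, limma, adjusted p = 0.205, unadjusted p = 0.0106). It was the only one of the 10 that reached 1 in size. Over the fits without 1 library it ranged from 0.68 to 1.30, and for *Dppa4* from 0.71 to 1.00.

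The pair has processed copies, of which that of *Dppa2* kept close to its gene and that of *Dppa4* did so except in oEV-EMT 3. *Gm9788*, the copy of *Dppa2* on chromosome 19, shares 27.1% of the 50-base stretches of *Dppa2* and had 23.8, 40.3 and 43.3 FPKM in oEV-EMT and 10.3, 19.5 and 27.6 in oEV-ctrl. The ratio of *Dppa2* to its copy stayed between 5 and 5.81 in all 6 libraries. The log2 difference was 0.93 for the copy. For the sum of *Dppa2* and the 2 genes that share at least 10% of its stretches it was 1.00. This is about the same as for *Dppa2* alone, the largest part of that sum. *Gm14058*, the copy of *Dppa4* on chromosome 2, had 4.55, 7.12 and 2.83 FPKM in oEV-EMT and 2.36, 2.93 and 4.68 in oEV-ctrl, with overlap. This was 15.1 to 19.8 times less than *Dppa4*, except in oEV-EMT 3, where it was 32.9 times less. The copy had a low value there, 2.83 FPKM. The log2 difference was 0.40 for this copy. For the sum of *Dppa4* and the 2 genes that share at least 10% of its stretches it was 0.81, with *Dppa4* by far the largest part. Whether the copies are transcribed or receive reads of the gene was not tested.

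*Dppa5a* and *Dppa1* were the genes with the lower level in oEV-EMT. *Dppa5a* lies on the minus strand of chromosome 9 from 78367052 to 78368177 (GRCm38), and its mRNA of 619 bases is the shortest of the 10. Its FPKM was 9758, 11900 and 11864 in oEV-EMT and 20192, 17187 and 15016 in oEV-ctrl. The highest oEV-EMT value was thus under the lowest oEV-ctrl value, as in 4.34% of all genes tested. This share depends on the scaling. After median-of-ratios scaling 1231 of 11921 genes lay below in this way, and after upper quartile scaling 1510 of 11951. The means were 11174 ± 1227 and 17465 ± 2599 (SD, n = 3 each), 1.56 times higher in oEV-ctrl. On the log2 scale the difference was -0.64 ± 0.19 (SE, limma, adjusted p = 0.175, unadjusted p = 0.00594), at the 2.32nd percentile of all genes tested. It lay between -0.91 and -0.52 over the other settings and between -0.74 and -0.53 with each library left out.

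Since *Dppa5a* is so short, the dependence on transcript length was looked at. The median log2 fold change was 0.05 for the 1385 tested genes with transcripts up to 700 bases, 0.22 between 700 and 1500 bases, 0.27 between 1500 and 3000 bases and 0.11 above. After a correction for transcript length, chosen after seeing the data, the log2 fold change of *Dppa5a* was -0.75, that of *Dppa1* -0.81, that of *Dppa4* 0.56 and that of *Dppa2* 0.75. The 4 genes kept their sides.

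*Dppa5a* has more relatives in the genome than the other genes. In all, 6 other genes hold at least 10% of its 50-base stretches. The most abundant is *Gm6798*, a processed copy on the X chromosome with 110, 139 and 142 FPKM in oEV-EMT and 189, 185 and 148 in oEV-ctrl, again without overlap. *Dppa5a* was 83.3 to 107 times higher than this copy, and the log2 difference of the copy was -0.41. The log2 difference of the sum of *Dppa5a* and these 6 genes was -0.64, the same as for *Dppa5a* alone. With copies this much lower than the gene, the sum could hardly differ from it. The other KH domain relatives, a list of 5 genes that includes *Ooep* and *Khdc3* of the subcortical maternal complex, gave 0 genes at an unadjusted p of at most 0.05 in either direction as deposited (limma). After median-of-ratios scaling, upper quartile scaling and the length correction, 0 were higher and 2 lower. Of all genes, 768 of 11921, 972 of 11951 and 710 of 11631 were lower under these settings. *Khdc1a*, named after its values were seen, had 1.71, 1.91 and 1.84 FPKM in oEV-EMT and 3.48, 2.89 and 2.28 in oEV-ctrl, without overlap. *Khdc3*, the most abundant of them, had 83.9, 288 and 203 FPKM against 162, 111 and 159, with overlap.

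*Dppa1* lies on the minus strand of chromosome 11 from 46607772 to 46629261. Its FPKM was 1840, 2427 and 2616 in oEV-EMT and 2628, 4302 and 3221 in oEV-ctrl. Every oEV-EMT value was below every oEV-ctrl value, as in 4.34% of all genes tested, but oEV-EMT 3 and oEV-ctrl 1 nearly met. The means were 2294 ± 405 and 3384 ± 849 (SD, n = 3 each), and the log2 fold change was -0.55 ± 0.23 (SE, limma, adjusted p = 0.292, unadjusted p = 0.0360). Without oEV-ctrl 2 it was -0.36 (unadjusted p = 0.163), without oEV-EMT 1 -0.40 (unadjusted p = 0.137), and without oEV-ctrl 3 -0.57 (unadjusted p = 0.0641). With the sum of all genes scaled to 1000000, the groups of *Dppa1* overlapped and the unadjusted p was 0.0983.

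The 45 ratios between the 10 genes within each library were compared, since a ratio of FPKM does not depend on how libraries are scaled against each other. Differences on the log2(FPKM + 1) scale still do so for a gene as low as *Lin28a*. In 13 of the 45, or 28.9%, the groups did not overlap on the log2(FPKM + 1) scale, where 19.8% of all 71084926 pairs of tested genes did not. These 45 ratios share genes and are not independent of each other. Of the 9 ratios of *Dppa5a*, 5 lay apart, and of those of *Dppa1* and *Lin28a*, 4 each. *Lin28a* would not have been tested without its higher oEV-EMT values, so its ratios are no support for a difference. Its 4 ratios are counted in the 13, so the share of 28.9% rests in part on them.

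The ratio of *Dppa5a* to *Dppa4* was 113, 105 and 127 in oEV-EMT and 432, 351 and 213 in oEV-ctrl. That of *Dppa5a* to *Dppa2* was 70.5, 58.5 and 51.2 against 347, 176 and 108. Within oEV-EMT these ratios were close to each other, while within oEV-ctrl they were spread 2 or more times, with oEV-ctrl 3 always nearest to oEV-EMT. They differed on the log2 scale by -1.46 and -1.65 (exact two-sided permutation test, p = 0.1 each, the smallest that 3 libraries against 3 allow). Over 16 alternatives they lay between -1.75 and -1.24 and between -2.04 and -1.21. These extremes came from leaving out oEV-ctrl 3 or oEV-ctrl 1. Alternatives that change the scaling can hardly move a ratio of genes this abundant, so they are no check of it. The ratio of *Dppa1* to *Dppa2* was 13.3, 11.9 and 11.3 in oEV-EMT and 45.1, 44.2 and 23.1 in oEV-ctrl, and that of *Dppa1* to *Dppa4* was 21.3, 21.5 and 28.1 against 56.2, 87.8 and 45.6 (exact permutation test, p = 0.1 each). In contrast, the ratio of *Dppa2* to *Dppa4* (1.6 to 2.49 against 1.25 to 1.99) and that of *Dppa5a* to *Dppa1* (4.54 to 5.30 against 3.99 to 7.68) overlapped, with log2 differences of 0.19 and -0.09. These 6 pairs were picked for display after their values were seen, from genes already seen to be higher or lower. The differences of the ratios restate the differences of the single genes and are no further test of them.

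**Figure D2:**
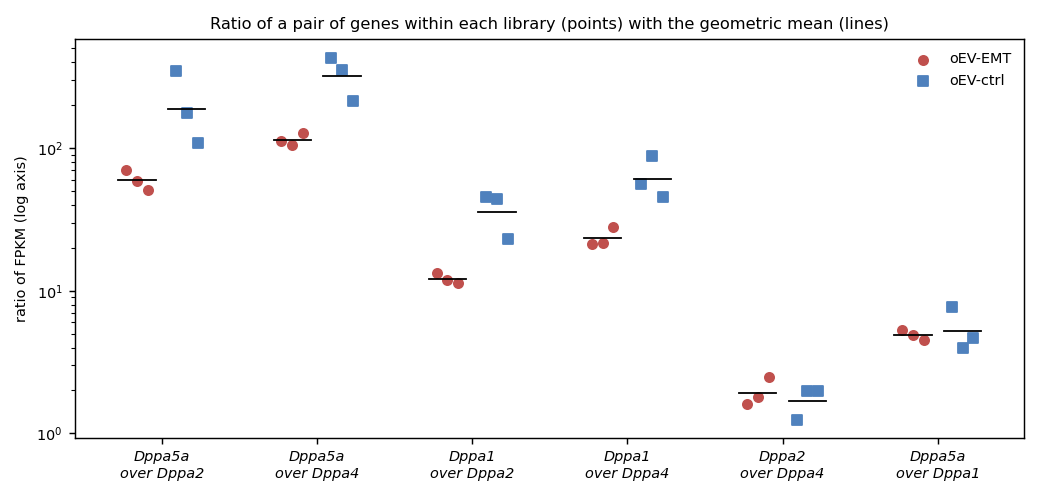
Ratio of FPKM within each library (log axis) for 6 pairs of genes, with oEV-EMT as circles, oEV-ctrl as squares and the geometric mean of each group as a line. The ratios of *Dppa5a* or *Dppa1* to *Dppa2* or *Dppa4* are lower in every oEV-EMT library, at 51.2 to 70.5 against 108 to 347 for *Dppa5a* over *Dppa2*, while the 2 pairs on the right overlap.

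*Dppa3* (chromosome 6, 122626410 to 122630272) varied more between libraries than between groups. Its FPKM was 249, 1145 and 911 in oEV-EMT and 437, 712 and 1058 in oEV-ctrl. Both extremes were oEV-EMT libraries, 4.6 times apart. The means of 768 ± 465 and 736 ± 311 (SD, n = 3 each) were close, and the log2 fold change was -0.11 ± 0.65 (SE, limma, adjusted p = 0.949). Without oEV-EMT 1 it was 0.56 (unadjusted p = 0.144), and without oEV-ctrl 3 it was 0.19. With this spread, a change of the size seen for *Dppa2* was within 2 standard errors of the estimate. Its copy *Dppa3-ps* on the X chromosome, 45.6 to 65.5 times lower, had the same order of libraries in oEV-EMT, with 3.8, 25.1 and 19.9 FPKM, and the sum of gene and copy differed by -0.11.

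The machinery of DNA methylation that *Dppa3* acts on was looked at as a list of 12 genes, of which 11 were tested. Of these, 0 were at an unadjusted p of at most 0.05 in either direction as deposited (limma) and 1 was lower after median-of-ratios scaling. The median log2 fold change was 0.09 as deposited and -0.08 after median-of-ratios scaling. *Pcna*, the most abundant of the list and a clamp of DNA replication to which *Uhrf1* and *Dnmt1* are tied, had 59.3 to 78.8 FPKM over all libraries. *Dnmt3b*, a methyltransferase named here after its values were seen, had 47.2, 33.7 and 8.99 FPKM in oEV-EMT and 23.5, 27.6 and 31.6 in oEV-ctrl. Of 32 germline genes that DNA methylation keeps silent in the body, 20 were tested, and 2 were higher and 0 lower at an unadjusted p of at most 0.05, or 10%, where 12.8% and 2.55% of all genes were. After median-of-ratios scaling 1 was higher, and after upper quartile scaling 0. *Rhox5*, a homeobox gene of the X chromosome, had 58.7, 41.1 and 60 FPKM in oEV-EMT and 34.9, 19.4 and 35.4 in oEV-ctrl, with a difference on the log2 scale of 0.84 ± 0.28 (SE, limma, adjusted p = 0.213). The other was *Tex19.2*, the neighbour and relative of *Tex19.1*, with 7.08, 2.14 and 2.74 FPKM against 1.66, 0.892 and 2.36 and an adjusted p of 0.317. Of the 9 factors of primordial germ cells, 6 were tested, and 1 was higher at an unadjusted p of at most 0.05, beside 12.8% of all genes, and 0 were after median-of-ratios or upper quartile scaling. It was *Ifitm3* (unadjusted p = 0.0397), with 12.6, 10.0 and 19.4 FPKM against 4.91, 8.42 and 10.8.

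*Trim28* (chromosome 7, 12999114 to 13031035) had 94.0, 68.2 and 54.7 FPKM in oEV-EMT and 67.8, 56.1 and 58.2 in oEV-ctrl. The groups overlapped and the oEV-EMT libraries held both the highest and the lowest value. The groups differed by 0.22 ± 0.23 on the log2 scale (SE, limma, adjusted p = 0.683), and by 0.01 without oEV-EMT 1. *Zbtb45* overlaps *Trim28* on the other strand, with at most 2.84 FPKM.

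Of 26 partners of *Trim28* in silencing, 25 were tested, and 5 were higher and 0 lower in oEV-EMT at an unadjusted p of at most 0.05, beside 12.8% and 2.55% of all genes. After median-of-ratios scaling the list gave 4 and 1. Its median log2 fold change was 0.21 as deposited, 0.02 after that scaling and -0.05 after upper quartile scaling, always close to that of all genes. *Zfp57*, the zinc finger protein that brings *Trim28* to imprinted loci, had a mean of 13 ± 8.44 FPKM (SD, n = 3) against 2.53 ± 0.432. In oEV-EMT 3 it had 3.36 FPKM, near the highest oEV-ctrl value of 2.81, and in oEV-EMT 2 it had 16.3. Its log2 fold change of 1.71 ± 0.55 (SE, limma, adjusted p = 0.232) came from 2 of the 3 libraries. *Zfp809*, which brings *Trim28* to proviral DNA, had 41.2, 22.8 and 27.7 FPKM against 14.9, 16.7 and 21.6 (log2 fold change 0.73 ± 0.26, SE, limma adjusted p = 0.240). Also higher at that p were *Hdac1*, a histone deacetylase, and *Smarcad1*, a chromatin remodeller, named after their values were seen. *Setdb1*, the methyltransferase that *Trim28* recruits, also named after its values were seen, had 17.9, 12.7 and 10.6 FPKM against 11.7, 13.2 and 15.4.

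*Tex19.1* (chromosome 11, 121146143 to 121148319) had 75.1, 37.9 and 24.1 FPKM in oEV-EMT and 30.2, 20.6 and 38.1 in oEV-ctrl. The single high value of oEV-EMT 1 set the group mean of 45.7 ± 26.4 against 29.6 ± 8.78 (SD, n = 3 each). On the log2 scale the difference was 0.50 ± 0.40 (SE, limma, adjusted p = 0.577). It was 0.07 without oEV-EMT 1 and 0.87 without oEV-EMT 3 (unadjusted p = 0.0346). *L1td1* (chromosome 4, 98726734 to 98738480) had 66.2, 36.9 and 34.1 FPKM in oEV-EMT and 57.8, 44.9 and 45.6 in oEV-ctrl. Its highest and both its lowest values were in oEV-EMT, and the log2 fold change was -0.16 ± 0.27 (SE, limma, adjusted p = 0.799). Without oEV-EMT 1 it was -0.46 (unadjusted p = 0.0614), and without oEV-EMT 3 it was 0.01.

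Of 16 genes that control retroelements by other routes than *Trim28*, 15 were tested, and 3 were higher and 0 lower at an unadjusted p of at most 0.05, a count near the share of 12.8% of all genes. *Apobec3*, a cytidine deaminase, had 2.77, 2.81 and 2.42 FPKM in oEV-EMT and 0.765, 0.841 and 1.58 in oEV-ctrl, with a difference on the log2 scale of 0.85 ± 0.22 (SE, limma, adjusted p = 0.164). *Rnaseh2c*, a subunit of the RNase that degrades the RNA of hybrids with DNA, had 22.4, 27.4 and 19.5 FPKM against 14.5, 10.3 and 17.7. *Zc3hav1*, the zinc finger antiviral protein, had 12, 10.9 and 10.1 FPKM against 5.90, 7.40 and 8.85. *Apobec3* would not have been tested without its higher values in oEV-EMT, since 1 oEV-ctrl library reached 1 FPKM. In these 3 genes the groups did not overlap, as in 18.1% of all genes, and after median-of-ratios scaling 1 of the list was left at that p, with 3 that did not overlap. *Ubr2*, the ubiquitin ligase that binds *Tex19.1*, had 2.99, 1.41 and 1.22 FPKM against 2.71, 1.82 and 2.03.

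*Lin28a* (chromosome 4, 134003330 to 134018841) was the least abundant of the 10. It had 3.13, 1.62 and 1.35 FPKM in oEV-EMT and 0.959, 0.860 and 1.04 in oEV-ctrl. Every oEV-EMT value was above every oEV-ctrl value, as in 18.1% of all genes tested. Library oEV-EMT 1 was far above the other oEV-EMT libraries. *Lin28a* passed the filter through the oEV-EMT libraries and oEV-ctrl 3, so that it would not have been tested without its higher values. The means were 2.03 ± 0.958 and 0.952 ± 0.0890 (SD, n = 3 each), a ratio of 2.14. The log2 fold change of FPKM + 1, which understates changes at this level, was 0.59 ± 0.24 (SE, limma, adjusted p = 0.287, unadjusted p = 0.0339). With 0.1 added in place of 1 it was 0.93. Without oEV-EMT 1 it was 0.35 (unadjusted p = 0.0831).

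Of 20 genes of let-7 processing and targets of *Lin28a*, 17 were tested, and 1 was higher and 0 lower at an unadjusted p of at most 0.05, a smaller share than the 12.8% of all genes. After median-of-ratios or upper quartile scaling, with no filter or with library quality weights, 0 were. The gene was *Hmga1*, a chromatin protein of growing cells, with 5.71, 1.15 and 2.08 FPKM in oEV-EMT and 1.27, 0.600 and 0.912 in oEV-ctrl. Its groups overlapped, and the adjusted p was 0.307 (limma). Like *Lin28a*, it would not have been tested without its oEV-EMT values. As in *Lin28a*, oEV-EMT 1 had by far the highest value. *Lin28b*, the paralog of *Lin28a*, named after its values were seen, was under 1 FPKM in every library, with at most 0.800.

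*Fbxo15*, on chromosome 18, was the steadiest of the 10, with 264, 252 and 240 FPKM in oEV-EMT and 229, 244 and 199 in oEV-ctrl. Its highest value was 1.32 times its lowest. The log2 fold change of 0.17 ± 0.18 (SE, limma, adjusted p = 0.680) equalled the median of all genes, and it turned to -0.03 after median-of-ratios scaling and -0.09 after upper quartile scaling. The direction for this gene is thus not determined. Of the 16 genes of SCF ubiquitin ligases, all were tested and 0 were at an unadjusted p of at most 0.05 in either direction as deposited (limma). This depends on the scaling, since 1 was lower after median-of-ratios scaling, 2 were lower after upper quartile scaling and 2 were higher with the sum of all genes scaled to 1000000. *Skp1a*, the adaptor that binds the F-box, had 498 to 689 FPKM over all libraries. *Timm21* overlaps *Fbxo15* on the other strand with 2.59 to 4.33 FPKM.

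**Figure D3:**
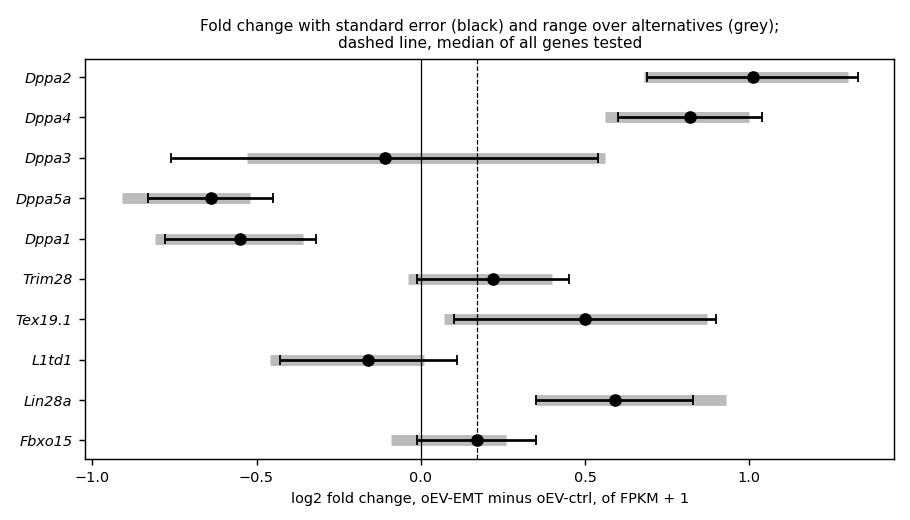
Log2 fold change of FPKM + 1, oEV-EMT minus oEV-ctrl, for the 10 genes, with the standard error from limma as black bars and the range over the alternatives as grey bars. *Dppa2* and *Dppa4* stay above 0.5 and *Dppa5a* below -0.5 over all alternatives, *Dppa1* stays below 0 and *Lin28a* above 0, while the grey bars of *Dppa3*, *Trim28*, *L1td1* and *Fbxo15* cross 0.

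Of the 6 libraries, oEV-EMT 1 held the most extremes. It had the highest value for *Trim28*, *Tex19.1*, *L1td1*, *Lin28a* and *Fbxo15* and the lowest for *Dppa3*, *Dppa5a* and *Dppa1*. This library was thus at one end for 8 of the 10 genes, where it was for 48.4% of all genes tested. For *Dppa2* and *Dppa4* it was the lowest of the 3 oEV-EMT libraries. It was also the deepest library. The part of depth in these values was not tested.

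Genes of the 2-cell stage, which *Dppa2* and *Dppa4* help to switch on, had low values in 5 of the 6 libraries. Of 23 such genes 22 were found in the table, and only *Zfp280c* was abundant enough to be tested, with 2.27 to 3.10 FPKM in all libraries and overlap between the groups. The summed FPKM of the 22 genes was 3.95, 84.7 and 4.6 in oEV-EMT and 3.25, 5.15 and 5.47 in oEV-ctrl. Library oEV-EMT 2 therefore held many times more than any other, and oEV-EMT 1 and oEV-EMT 3 lay within the range of oEV-ctrl. *Tcstv3* had 38.6 FPKM in oEV-EMT 2 and 0.0708 in oEV-EMT 3, and was listed at 0 in the other 4. The genes named next were chosen after their values were seen. *Usp17lb* had 13.9, *Tcstv1* 8.08, *Zfp352* 7.79, *Sp110* 5.68 and *Tdpoz4* 3.47 FPKM in oEV-EMT 2, and 9 of the 22 genes reached 1 FPKM there, against 1 or 2 in each other library. In contrast, the *Zscan4* genes and *Duxf3*, markers of the 2-cell stage itself, had at most 0.0242 FPKM in any library. Several of the 22 genes belong to the same families by name, and reads shared among them were not examined. The share of all genes this high only in oEV-EMT 2 was not determined. *Dppa4* itself had its highest value of the 6 libraries in oEV-EMT 2, at 113 FPKM beside 93.2 in oEV-EMT 3, while *Dppa2* had 203 FPKM there and its highest value, 232, in oEV-EMT 3.

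**Figure D4:**
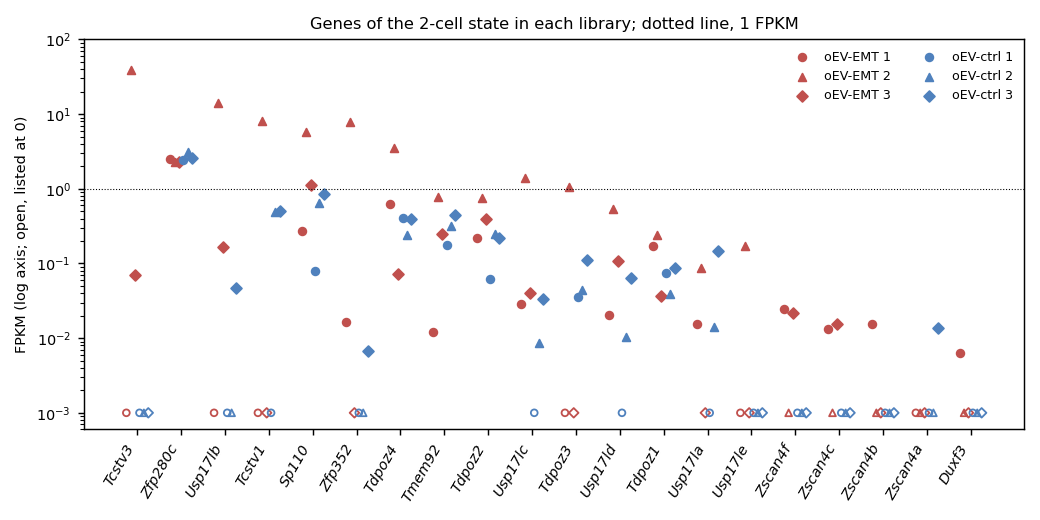
FPKM (log axis) of the 20 genes of the 2-cell stage with a value above 0, in the 3 oEV-EMT libraries (red) and the 3 oEV-ctrl libraries (blue), with open symbols at the foot for values of 0. Red triangles, library oEV-EMT 2, lie far above the other libraries for *Tcstv3* (38.6 FPKM), *Usp17lb* (13.9 FPKM) and *Zfp352* (7.79 FPKM), while *Zfp280c* is alike in all 6.

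Markers of the blastocyst lineages were set beside these genes, since most of the 10 are genes of the inner cell mass. All 16 markers of the epiblast were tested, and 6 were higher and 0 lower in oEV-EMT at an unadjusted p of at most 0.05, each without overlap between groups. Of all genes tested, 12.8% were higher at that p and 18.1% were above without overlap. *Utf1* had 173, 87.4 and 86.5 FPKM in oEV-EMT and 33.8, 20 and 40.1 in oEV-ctrl, with a difference on the log2 scale of 1.83 ± 0.33 (SE, limma, adjusted p = 0.101). *Gdf3*, a growth factor of the TGF-beta family, had 30.0, 30.8 and 35.6 FPKM against 10.3, 16.1 and 17.7, and *Pou5f1*, the pluripotency factor Oct4, had 23.8, 23.9 and 15.4 against 10.4, 6.94 and 13.7. The others were *Nanog*, *Fgf4* and *Sox15*, named after their values were seen. The other 10 of the 16 were not at that p, and 0 of the 16 had an adjusted p of at most 0.05. Some had a negative log2 fold change with overlap, namely *Sall4* (-1.06), *Zfp42* (-0.71), *Sox2* (-0.32), *Klf5* (-0.28) and *Esrrb* (-0.06). These too were named after their values were seen. The summed FPKM of the list was 399 to 719 in oEV-EMT and 383 to 491 in oEV-ctrl, with overlap. The median log2 fold change of the epiblast markers was 0.33 as deposited, 0.16 after median-of-ratios scaling and 0.10 after upper quartile scaling, above that of all genes each time. The 12 markers of the trophectoderm had a median of -0.02, or -0.21 after median-of-ratios scaling. As deposited 1 of them, *Elf5*, was higher at an unadjusted p of 0.0288, and after that scaling 0 were higher and 1 lower at an unadjusted p of at most 0.05. The 9 markers of the primitive endoderm had a median of 0.08, or -0.08 after median-of-ratios scaling. As deposited 2 of the 9, *Gata4* and *Sox17*, were higher at that unadjusted p, beside 12.8% of all genes, and the groups of *Sox17* overlapped. After median-of-ratios scaling 1 was higher and 0 lower, and after upper quartile scaling 1 and 1. *Dab2* (-0.26), *Gata6* (-0.19) and *Col4a1* (-0.07) had negative log2 fold changes.

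**Figure D5:**
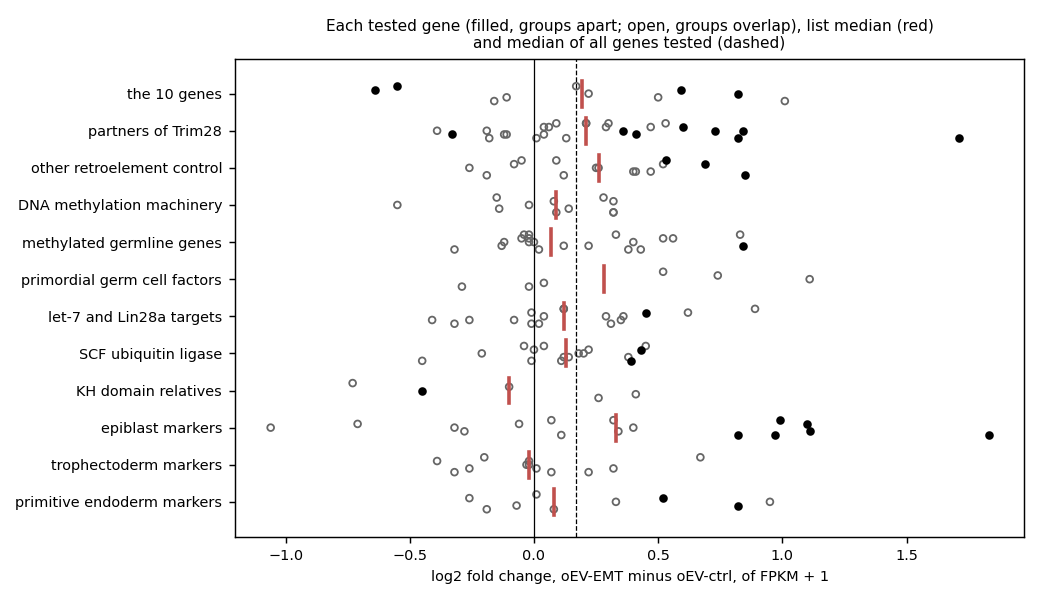
Log2 fold change of FPKM + 1, oEV-EMT minus oEV-ctrl, of each tested gene of the 10 and of 11 lists of related genes, with the list medians in red and the median of all genes tested (0.17) dashed. Filled points, whose groups do not overlap, lie on both sides for the 10 genes, and for the epiblast markers they are 6 points between 0.82 and 1.83.

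The 10 genes were also set against *Pou5f1* within each library. *Pou5f1* was chosen after seeing the data and was itself higher in oEV-EMT, so that a gene alike in both groups is lower relative to it. The ratio of *Dppa4* to *Pou5f1* was 3.64, 4.73 and 6.04 in oEV-EMT and 4.47, 7.06 and 5.15 in oEV-ctrl, and its log2 difference was -0.16. That of *Dppa2* to *Pou5f1* was 5.82, 8.52 and 15.0 against 5.58, 14 and 10.2, with a log2 difference of 0.03. Both overlapped, so the higher level of *Dppa2* and *Dppa4* was not separated from that of *Pou5f1*. This holds for *Pou5f1* alone. No other epiblast marker was used as the reference, and some of them, such as *Sox2* and *Klf5*, were not higher in oEV-EMT. The ratio of *Dppa5a* to *Pou5f1* was 410, 498 and 769 in oEV-EMT and 1933, 2478 and 1095 in oEV-ctrl, a log2 difference of -1.61 without overlap. *Dppa1* (-1.52), *L1td1* (-1.14) and *Trim28* (-0.76) also had lower ratios to *Pou5f1* in every oEV-EMT library, where their own differences were -0.55, -0.16 and 0.22. The share of all genes tested that lie apart relative to *Pou5f1* was not determined, so these ratios are a description only. The part of the share of epiblast cells in these differences was not tested.

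Other cell types were hardly seen. Of 12 transcripts of the oocyte 3 were tested, and 9 were under 1 FPKM in every library. *Zp3*, a protein of the zona pellucida, had 1.58, 1.08 and 1.61 FPKM in oEV-EMT and 0.120, 0.356 and 0.792 in oEV-ctrl (log2 fold change 0.79 ± 0.23, SE, limma adjusted p = 0.174). It passed the filter through the oEV-EMT libraries alone, so that it had to be higher there to be tested. The summed FPKM of the list was 5.66 to 7.71 against 3.31 to 4.30. *Oosp1* was listed at 0 in every library. *Dppa3*, which the oocyte also stores, did not follow this list, with its lowest value in oEV-EMT 1. Of 16 markers of cumulus cells, granulosa cells, oviduct, sperm and blood, 14 were under 1 FPKM in every library and 8 were listed at 0, among them *Ptprc* and *Foxj1*. Their sum was 1.56 to 5.2 FPKM in oEV-EMT and 2.03 to 2.69 in oEV-ctrl, and *Tnp2*, the highest on average, reached 2.70 FPKM.

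For each of the 10 genes, the protein-coding gene whose log2(FPKM + 1) was most alike over the 6 libraries was taken from 9585 tested genes. With 6 libraries and this many genes, high values of r arise for any gene, and the values are a description. The most alike gene was *Zfp94* for *Dppa2* (r = 0.997), *Clcc1* for *Dppa4* (r = 0.990), *Gnptab* for *Dppa3* (r = 0.993) and *Nudt7* for *Dppa5a* (r = 0.991). It was *Phlda1* for *Dppa1* (r = 0.967), *Ubr2* for *L1td1* (r = 0.994), *Mettl16* for *Tex19.1* (r = 0.999), *Ptprf* for *Trim28* (r = 0.995), *Ppt1* for *Lin28a* (r = 0.996) and *Abr* for *Fbxo15* (r = 0.982). All 10 partners are different genes. The 10 genes themselves were left out of the genes searched. Among themselves they correlated at r between -0.89 (*Dppa3* and *L1td1*) and 0.91 (*Dppa2* and *Dppa4*).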

How the data were processed

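Polyadenylated RNA of pooled blastocysts was sequenced after TruSeq library preparation. Per the labels and the methods of the study, the authors used StringTie and the genome build mm10. Whether strand was used is not given in the sources used here, so overlapping genes cannot be told apart by strand. The authors deposited 1 value per gene and library. The methods call it TPM, but the sums differ between libraries and exceed 1000000, so the values were taken as FPKM, normalized by the authors to length and library. FPKM keep no read totals, and counting errors cannot be given.

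Genes with at least 1 FPKM in at least 3 libraries were fitted as log2(FPKM + 1), oEV-EMT minus oEV-ctrl, with limma 3.58.1 in R 4.3.3 (trended, robust variance), with Benjamini-Hochberg adjustment over all genes and a threshold of 0.05. The procedure was tested on simulated data. Single values were compared with exact two-sided permutation tests over libraries, with a smallest p of 0.1. Names, coordinates and sequences came from GENCODE M21. Shared sequence means identical stretches of 50 bases. The 10 genes and 14 lists were chosen with earlier results of these data known. Named were the 10 genes, up to 3 genes per list with the smallest unadjusted p of at most 0.05 or else the most abundant gene, and the most alike gene of each of the 10. The result of 1 gene under this rule is not reported here. Alternatives changed the scaling, filter, pseudocount, variance or library weights, corrected for transcript length, blocked on replicate number or dropped 1 library.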

Additional observations from a re-analysis of the deposited data

How the results depend on the processing

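Over the alternatives, 0 of the 10 genes had an adjusted p of at most 0.05 in any (limma), with the smallest for *Dppa4* at 0.0611 under library quality weights. The number of the 10 at an unadjusted p of at most 0.05, 5 as reported, was 3 with the sum of all genes scaled to 1000000 and 3 with no filter, and 3 to 6 with each library left out. *Lin28a* was not tested when that sum was scaled. The median log2 fold change of the 10, 0.19 as reported, was 0.00 after median-of-ratios scaling, -0.07 after upper quartile scaling, 0.26 with the sum scaled and -0.03 after the transcript length correction (chosen after seeing the data), and 0.10 to 0.30 with each library left out. The cause of these shifts was not tested. Of all genes, 151 passed the adjusted threshold under library quality weights, and 0 to 16 with each library left out.

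The log2 fold change of *Dppa3* turned to 0.26 under library quality weights and ranged from -0.53 to 0.56 with each library left out. That of *L1td1* ranged from -0.46 to 0.01 in the same way. *Trim28* was at -0.04 after upper quartile scaling. *Fbxo15* was at -0.03 after median-of-ratios scaling, -0.09 after upper quartile scaling and -0.08 after the length correction.

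Libraries of the 2 groups share replicate numbers, but the deviations of same-numbered libraries correlated at 0.119, -0.0442 and 0.0388, so the numbers were not taken as pairs. With a replicate block, 21 of all genes and 0 of the 10 passed the adjusted threshold, 5 of the 10 were at an unadjusted p of at most 0.05, and *Dppa2* had an adjusted p of 0.114. Fits that leave out 1 library keep 2 in that group.

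Limits are the 3 libraries per group, the unknown read totals and the unannotated entry that takes up to 31.5% of the FPKM of a library. Low values such as those of *Lin28a* and of the 2-cell genes are the least precise.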

Other observations

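Some pluripotency genes that are not among the 10 were low in a single library. These were chosen after their values were seen. In oEV-EMT 3, *Sall4*, a zinc finger factor of the inner cell mass, had 0.804 FPKM, where the other 5 libraries had at least 31.8. *Zfp42*, also called Rex1, had 17.7 FPKM there against at least 63.7, *Esrrb* 0.154 against at least 0.720, and *Mycn* 3.14 against at least 12.1. Of all genes tested, 50 (0.419%) had, in that library, a value more than 3 times below the next lowest. Over the 6 libraries such genes numbered between 15 and 101, the most in oEV-ctrl 1. The 10 genes described in the report were not among them, and *Dppa2* had its highest value in oEV-EMT 3.

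In oEV-EMT 1, *Dazl*, an RNA-binding protein of germ cells, had 13.0 FPKM where the other libraries had at most 3.84, and *Ifitm1* had 15.2 against at most 3.31. These genes were named after their values were seen. The share of all genes with a single value this far above the rest was not determined. In oEV-EMT 1 *Lin28a* and *Tex19.1* also had their highest values, as did 37.4% of all genes tested.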
